A study of Mus musculus with 40 samples.

Results

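The vacuolar H+-ATPase (V-ATPase) genes described here are the 10 rows of the cortical gene count table, out of 43346 rows, whose gene name is Atp6v0d2, Atp6v0d1, Atp6v0a1, Atp6v0b, Atp6v0c, Atp6v1a, Atp6v1b2, Atp6v1c1, Atp6v1h or Atp6ap1. They were chosen by name, to set the myeloid subunit Atp6v0d2 beside the 9 subunits that most cells use. RNA was sequenced from the cortex of 40 mice in 4 groups of 10, each of 5 females and 5 males. The mice carried either the wild type Trem2 gene (WT) or the Trem2 H157Y knock-in on both alleles (Hom), a missense change in a microglial receptor made by CRISPR/Cas9 in zygotes and bred from the offspring of 1 founder. In the amyloid cohort all mice, WT and Hom, were also hemizygous for the 5xFAD transgenes, which are expressed in neurons from the Thy1 promoter and lead to amyloid plaques, and were 8.5 months old. The non-amyloid cohort carried no 5xFAD transgene and was 6 months old, so amyloid and age cannot be told apart in any comparison between cohorts. The samples are whole cortex, and a count therefore sums all cell types. Fewer cells of a type and less RNA per cell cannot be told apart.

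The V-ATPase is a rotary proton pump that acidifies lysosomes, endosomes and synaptic vesicles. Its cytosolic V1 sector hydrolyses ATP and turns a central stalk, and its membrane V0 sector carries protons across the membrane through a ring of c subunits against the a subunit. The d subunit sits on top of that ring and couples it to the stalk. Atp6v0d1 encodes the d1 form found in nearly all cells, whereas Atp6v0d2 encodes the d2 form known from osteoclasts, where it takes part in cell fusion, and from macrophages and kidney. Neurons, which load their synaptic vesicles with the help of the same pump, are a major source of V-ATPase transcripts in brain.

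Total counts per library ran from 41646271 to 105903846, with a median of 77193387. The smallest library was replicate 19, an amyloid Hom female, which also stood apart in the share of its counts on 488 genes that lie mostly on the exons of a much more abundant gene of the opposite strand. That share was 0.616% in replicate 19 and between 0.0144% and 0.0191% in the other 39 libraries. Replicate 19 was kept, and the results that rest on it are given with and without it. The markers of the tissue were in place, since the summed level of 8 neuronal markers lay between 8545 and 10422 CPM (counts scaled to the TMM-adjusted size of each library) in all libraries and the 14 microglial markers were all detected. The summed level of 5 choroid plexus markers was uneven, from 7.01 to 669 CPM. Its group means were 31.6 CPM in non-amyloid WT, 81.8 in non-amyloid Hom, 89.2 in amyloid WT and 226 in amyloid Hom mice. The part of this tissue in the values below was not tested. No 2 libraries of a group agreed within sampling noise (the lowest chi-square per degree of freedom over 16729 genes was 15.2), so each was taken as 1 replicate. GEO's labels number the mice from 1 to 40, and the replicate numbers below are those.

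Before the values, the promoter sequences show what several of the broadly used subunits share and what could be read of them. RefSeq promoter windows (GRCm38.p6, 250 bases before to 50 bases after a transcript start) were at hand for 6 of the 10 members, Atp6v0a1, Atp6v0b, Atp6v0c, Atp6v0d1, Atp6v1a and Atp6ap1. The window of Atp6v0d2 was not analysed here, nor were those of Atp6v1b2, Atp6v1c1 and Atp6v1h. The E-box CACGTG, searched on both strands (it is its own reverse complement), was found in 3 of the 6, Atp6v0b, Atp6v0d1 and Atp6v1a, and in 7.15% of all 32851 windows. Its longer form TCACGTGA, which contains CACGTG and is the core of the element bound by the lysosomal gene regulators TFEB and TFE3, was found in 2 of the 6, Atp6v0d1 and Atp6v1a, against 0.974% of all windows. These 3 windows of 30 bases are shown because they hold the letters that members of the broadly used set share, with the motif in capitals and the rest in lower case, read 5′ to 3′ on the gene's strand:

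Atp6v0d1, chr8:105566061-105566090, minus strand, 26 bases before to 4 bases after the start: taagagccaggccctactgcggTCACGTGA

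Atp6v1a, chr16:44139373-44139402, minus strand, from 143 to 114 bases before the start: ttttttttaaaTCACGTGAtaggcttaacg

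Atp6v0b, chr4:117887339-117887368, minus strand, from 39 to 10 bases before the start: ggtCACGTGgggtcggcgcatCACGTGcgc

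The Atp6v0b window thus held the E-box at 2 places. The motif GAGGAA, the core of the sites of the myeloid factor PU.1, was found on either strand in 1 of the 6 members (Atp6v0a1) and in 28.3% of all windows. TGANTCA, the AP-1 site, was found in 1 of the 6 (Atp6v0a1) and in 7.81% of all windows. A match in a window is a description of the letters there.

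Atp6v0d2 lies on chromosome 4 between 19876841 and 19922605 (mm10, minus strand, ENSMUSG00000028238). It was near the limit of detection in non-amyloid cortex and was found in every amyloid library. In non-amyloid WT mice the 10 libraries held 0, 0, 0, 1, 1, 2, 2, 3, 5 and 10 counts, and the 10 non-amyloid Hom libraries held 7 values of 0, 2 of 1 and 1 of 3. In all, 29 counts were seen over 20 non-amyloid libraries, of which 18 held 3 counts or fewer. With 0 counts a library of this depth allows a level of up to 0.0292 to 0.0481 CPM (3 counts of the library, for counting error only).

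In amyloid WT mice the Atp6v0d2 level was 1.34 ± 0.72 CPM (SD, n = 10), with a lowest value of 0.319, a median of 1.03 and a highest value of 2.47 CPM (25 to 219 counts). In amyloid Hom mice it was 0.458 ± 0.214 CPM (SD, n = 10), from 0.157 over a median of 0.420 to 0.825 CPM (15 to 57 counts). Every amyloid library was above every non-amyloid library, where the highest value was 0.127 CPM in WT mice and 0.0403 CPM in Hom mice. Within the amyloid cohort the genotypes overlapped. Of the 10 amyloid WT mice, 8 were above the highest amyloid Hom mouse, and of the 10 amyloid Hom mice, 3 were below the lowest WT mouse, replicate 13.

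**Figure D1:**
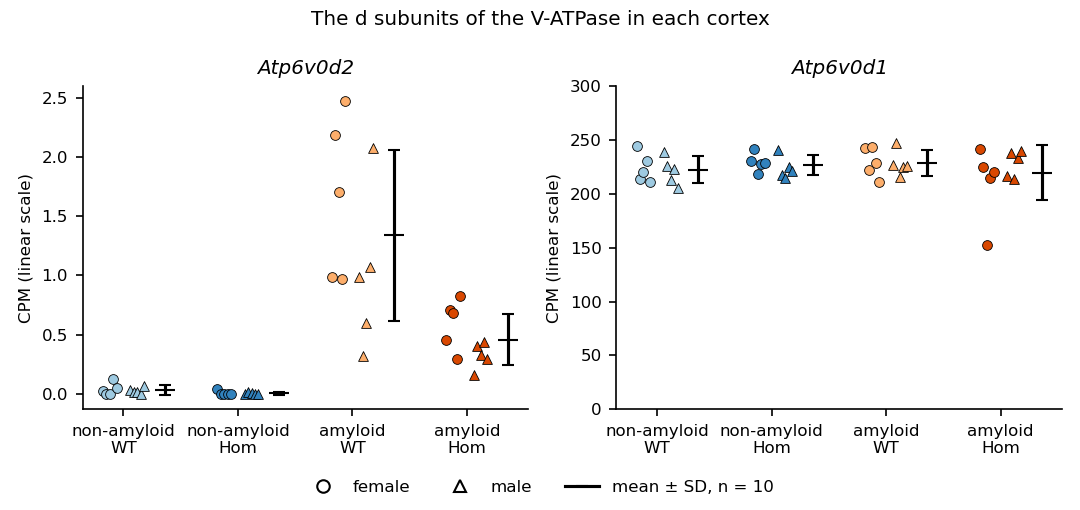
CPM (linear scale from 0) of the d subunit genes Atp6v0d2 (left) and Atp6v0d1 (right) in each of the 40 cortices, by group, with circles for females, triangles for males and bars for the group mean ± SD (n = 10). Atp6v0d2 is near 0 in both non-amyloid groups and averages 1.34 CPM in amyloid WT and 0.458 CPM in amyloid Hom mice, while Atp6v0d1 stays between 205 and 247 CPM in every library except replicate 19 at 153 CPM.

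Atp6v0d2 rose between the non-amyloid and amyloid cohorts in both genotypes. In WT mice the fitted log2 fold change was 5.33 ± 0.50 (SE; edgeR quasi-likelihood test, adjusted p = 4.8e-08), and in Hom mice it was 5.86 ± 0.52 (SE, adjusted p = 6.4e-08). It was the only member of the 10 that passed the test (adjusted p below 0.05 and a change of more than 0.25 on the log2 scale) in either comparison. Of all 21253 genes tested, 7.31% passed in WT mice and 5.83% in Hom mice, and 6.21% and 4.58% passed as higher. The CPM values of the cohorts did not overlap for 2% of genes in WT mice and 0.885% in Hom mice. The gene passed the filter on low counts through its amyloid libraries, since 20 of the 21 libraries with at least 10 counts were amyloid, so a difference between cohorts was to be found once it was tested. The size of these fold changes depends on very few non-amyloid counts. Without replicate 24, which gave 10 of the 24 counts of the non-amyloid WT group, the change in WT mice was 5.91, and without replicate 6, which gave 3 of the 5 counts of the non-amyloid Hom group, the change in Hom mice was 6.71.

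Between Hom and WT mice of the amyloid cohort, genotype and amyloid load cannot be told apart, as the paper reports less amyloid in Hom mice. The mean Atp6v0d2 level of Hom mice in this cohort was 34.2% of that of WT mice. The log2 fold change was -1.56 ± 0.33 (SE, 95% interval -2.24 to -0.87), with an unadjusted p of 1.09e-04 and an adjusted p of 0.0554 in edgeR's quasi-likelihood test. This did not pass the threshold, as none of the 10 members did in this comparison (0.0753% of all genes passed, 0.0518% as lower, and 0.00941% had groups that did not overlap). The adjusted p was 0.0085 once sex entered the model, 0.0012 with DESeq2 and 0.0102 with all 40 libraries in one fit, whereas limma-voom with sample weights gave 0.181. The log2 fold change lay between -1.69 and -1.41 in all 32 alternatives, and Atp6v0d2 passed in 10 of them. In those 10 the share of all genes that passed was also higher than 0.0753%, from 0.141% (30 genes, without Hom replicate 34) to 2.88% (612 genes, all 40 libraries in one fit), and leaving out WT replicate 13 alone took the count from 16 to 204 genes (0.960%), WT replicate 22 to 94 and WT replicate 9 to 60. Without replicate 19 it was -1.63 (adjusted p = 0.0705), and with sex also in the model it was -1.60 (adjusted p = 0.0125). Atp6v0d2 was set against the other members with its values in these samples known, so its direction here is not independent of that choice.

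Within the non-amyloid cohort the mean levels were 0.0326 CPM in WT and 0.00619 CPM in Hom mice, from 24 and 5 counts. These means were within or under the 0.0292 to 0.0481 CPM that 0 counts in a library allow. Of the WT libraries, replicates 24 (0.127 CPM) and 31 (0.0683 CPM) were above that range. With so few counts no fold is given. No member passed the test there (0.0329% of all genes did). The interaction of genotype and cohort was 0.55 ± 0.68 for Atp6v0d2 (SE, adjusted p = 0.75 by edgeR), with a 95% interval of -0.82 to 1.92. Its sign and size rest in part on the same 24 and 5 non-amyloid counts and are not firm. No gene of the table passed the test of the interaction in edgeR (0%, while 2189 had an unadjusted p below 0.05) or limma-voom. With sex as a covariate edgeR called 12 genes (6 without replicate 19), and DESeq2 called 27, in each case with no member among them.

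Females had higher Atp6v0d2 values than males in both amyloid groups, without passing the test. In WT mice the level was 1.66 ± 0.68 CPM in females and 1.01 ± 0.67 CPM in males (SD, n = 5 each), and in Hom mice it was 0.592 ± 0.216 and 0.324 ± 0.109 CPM. The highest WT male, replicate 36 with 219 counts, was above 3 of the 5 WT females. The fitted difference of females from males over both genotypes was 0.78 ± 0.29 (SE, unadjusted p = 0.0128, adjusted p = 0.395 by edgeR). None of the 10 members passed between sexes in the amyloid cohort (0.24% of all genes did) or the non-amyloid cohort (0.122%). The interaction of genotype and sex was 0.15 ± 0.58 (adjusted p = 0.95), and again no gene passed it (0% by edgeR, where 1124 had an unadjusted p below 0.05, and 0 by DESeq2 and limma-voom).

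Atp6v0d1, the ubiquitous d subunit on chromosome 8 between 105524465 and 105566047 (ENSMUSG00000013160), passed the test in none of the 8 comparisons. Its level was 222 ± 12 CPM in non-amyloid WT, 227 ± 9 CPM in non-amyloid Hom, 229 ± 12 CPM in amyloid WT and 220 ± 26 CPM in amyloid Hom mice (SD, n = 10 each). The larger SD of the last group came from replicate 19, at 153 CPM against a lowest value of 214 CPM among the other 9, whose SD was 11.2 CPM. Its log2 fold changes between cohorts were 0.04 ± 0.04 in WT and -0.06 ± 0.06 in Hom mice, and between genotypes -0.06 ± 0.06 in the amyloid and 0.03 ± 0.04 in the non-amyloid cohort (SE). The 95% intervals of all 4 stayed within -0.19 and 0.13.

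The d subunits were then compared inside each mouse, where the scaling of libraries cancels, by the log2 ratio of Atp6v0d2 to Atp6v0d1 counts (each plus 0.5). The mean ratio was -7.64 ± 0.95 in amyloid WT and -9.02 ± 0.79 in amyloid Hom mice (SD, n = 10 each). The difference of -1.39 ± 0.39 (SE) had p = 0.003 in a 2-sided permutation test of 100000 resamples and an adjusted p of 0.004 over the 4 ratio comparisons. All 10 Hom mice were below the median of the WT mice, although the groups overlapped. Against the non-amyloid cohort the ratio was higher by 5.55 ± 0.59 in WT and by 5.53 ± 0.41 in Hom mice (SE), with no overlap and, for each, p = 2e-05 in the permutation test, the smallest value these resamples can give (adjusted p = 4e-05). Without replicate 19 the difference between amyloid Hom and WT mice was -1.52 (adjusted p = 0.00205). As the pair was chosen with the pattern of Atp6v0d2 known, the ratio describes the same counts rather than adding evidence to them.

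The ratio in non-amyloid mice was set by values of 0 and by the constant of 0.5. It was lower in Hom than in WT mice with an adjusted p of 0.0372 in the same permutation test. Leaving out any of 13 of the 20 libraries took it past 0.05, up to 0.0752 without replicate 24. These were Hom replicates 2, 11, 14, 20, 23, 35 and 37 and WT replicates 1, 7, 24, 28, 31 and 38. For the gene itself edgeR gave an unadjusted p of 0.0183 and an adjusted p of 0.965, from the same few counts. That adjustment is over 21253 genes and the one of the ratio over 4 comparisons, so the adjusted values are not alike.

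Per unit of transcript length the d2 form was a small part of the d subunit message even at its highest. Of the summed RPKM (CPM per kilobase of the gene length in the count table) of both d genes, Atp6v0d2 made up 0.389% ± 0.220 in amyloid WT and 0.143% ± 0.079 in amyloid Hom mice (SD, n = 10 each), with a highest value of 0.767% in one WT mouse. In non-amyloid mice its share was 0.00967% ± 0.0117 in WT and 0.00181% ± 0.00368 in Hom mice. In whole cortex the Atp6v0d1 message of all cell types enters this share, and a share within microglia cannot be read from it.

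The 9 broadly used subunits stood far above Atp6v0d2, and none of them passed a test. Averaged over the 40 libraries, the highest was the V1 catalytic-hexamer subunit Atp6v1b2 with 169 RPKM. Atp6v1c1, a V1 subunit of the regulated link between the sectors, followed with 158 RPKM by the length in the count table, but 59.1 RPKM by the exon length of the GENCODE vM21 annotation, so its place is uncertain. Atp6v1a, the ATP-hydrolysing subunit, had 144 RPKM, the accessory subunit Atp6ap1 136 RPKM and Atp6v0d1 125 RPKM. The V0 subunits Atp6v0b, part of the proton-carrying ring, and Atp6v0a1, the neuronal a subunit, had 81.2 and 66.5 RPKM. Atp6v0c, the main ring subunit, had 35.04 RPKM and Atp6v1h, which holds ATP hydrolysis in check in free V1, had 23.02 RPKM. Neighbours in this order from Atp6v1b2 to Atp6v0d1 were 8.10 to 13.6 RPKM apart, against SDs over the libraries of 8.90 to 15.8 RPKM, so their ranks are not firm. Atp6v0d2 averaged 0.169 RPKM over all libraries.

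**Figure D2:**
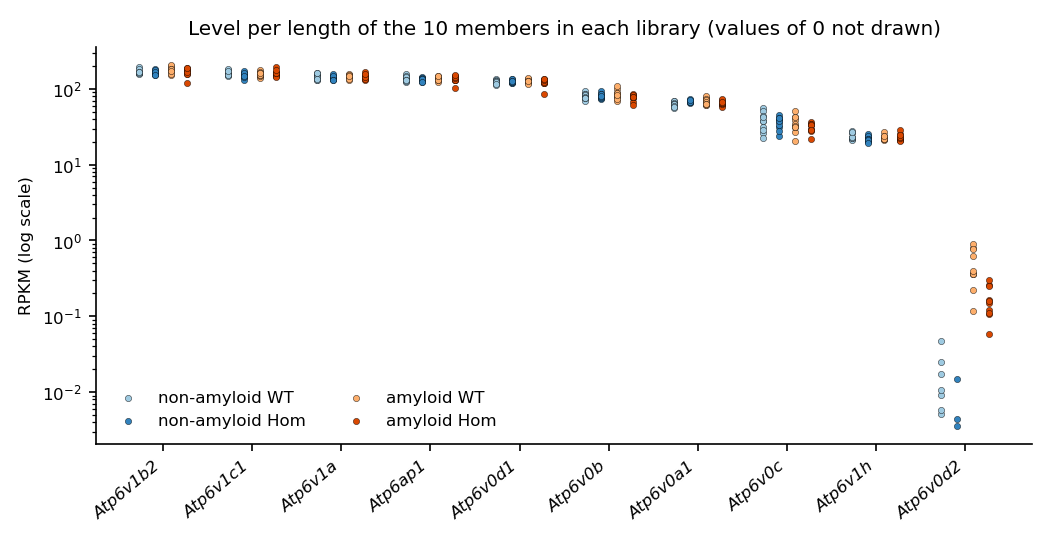
RPKM by the table's gene length (log scale) of the 10 members in each of the 40 libraries, coloured by group, with members in order of their mean and libraries at 0 counts not drawn. Means of the 9 broadly used subunits run from 23.02 to 169 RPKM with the 4 groups on top of each other, and only Atp6v0d2 spreads by group, below 1 RPKM.

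Across groups, the highest group mean of each of these 9 exceeded its lowest by a factor of 1.03 (Atp6ap1) to 1.22 (Atp6v0c). The coefficient of variation among the 10 mice of a group ran from 3.9% to 28.9% with a median of 8.1%, and was largest for Atp6v0c. In all 36 pairings of these 9 members with the 4 comparisons of genotype or cohort, the groups overlapped. Nearly all genes did the same. Groups were apart for 2% of genes between cohorts in WT and 0.885% in Hom mice, and for 0.00941% between genotypes with amyloid. The share between genotypes without amyloid was not computed. None passed the edgeR test in any of the 8 comparisons. At most 7.31% of all genes passed in any of them, so 0 of 9 is near that share. At an unadjusted p below 0.05 there were 0 of 9 between genotypes in the amyloid cohort, 1 between genotypes in the non-amyloid cohort, 1 between cohorts in WT mice, 2 between cohorts in Hom mice and 1 for the interaction. Of all genes tested, 9.67%, 4.61%, 20.04%, 24.4% and 10.3% were below it in the same order.

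The nearest to a change was Atp6v0a1 (chr11:101009452-101063719). Its level was 410 ± 30 CPM in non-amyloid WT and 455 ± 18 CPM in non-amyloid Hom mice, but 450 ± 41 CPM in amyloid WT and 427 ± 29 CPM in amyloid Hom mice (SD, n = 10 each). The log2 fold change of Hom against WT was thus 0.15 ± 0.04 (SE, unadjusted p = 0.00228, adjusted p = 0.913) without and -0.08 ± 0.05 (adjusted p = 0.652) with amyloid. The interaction was -0.22 ± 0.07 (SE, unadjusted p = 0.00162, adjusted p = 0.176 by edgeR). None of these passed, and each is smaller than the change of 0.25 that the threshold asks for.

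For the other V0 members the differences between genotypes in the amyloid cohort were -0.15 ± 0.08 for Atp6v0b and -0.19 ± 0.12 for Atp6v0c, with 95% intervals of -0.30 to 0.01 and -0.45 to 0.07. Atp6v0c had the widest spread of the 9, from 70.5 to 189 CPM over the 40 libraries. Its difference between cohorts in Hom mice was -0.22 ± 0.10 (adjusted p = 0.189). Atp6v0c lies on chromosome 17, as Trem2 does, and pseudogene copies of it are annotated, so reads could be shared among them.

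For the V1 members the genotype differences in the amyloid cohort were -0.01 ± 0.05 for Atp6v1a, -0.10 ± 0.07 for Atp6v1b2, 0.03 ± 0.06 for Atp6v1c1 and 0.01 ± 0.06 for Atp6v1h, and that of Atp6ap1 was -0.03 ± 0.06 (log2, SE). Over the 9 members the median log2 fold change was -0.06 in that comparison, -0.03 between genotypes without amyloid, 0.02 between cohorts in WT and 0.00 between cohorts in Hom mice, beside medians of all genes between 0.00 and 0.01 in size. The 95% intervals of the 9 reached from -0.45 to 0.25 at the widest over these 4 comparisons, so larger changes of single subunits in whole cortex lie outside them. Without replicate 19, which was the lowest amyloid Hom library for Atp6v0d1, Atp6v1b2 and Atp6ap1, the genotype differences of the 9 in the amyloid cohort lay between -0.20 and 0.04 and none passed. Their median was then -0.007, and the median between cohorts in Hom mice was 0.045, so the medians of these 2 comparisons depend on that library.

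**Figure D3:**
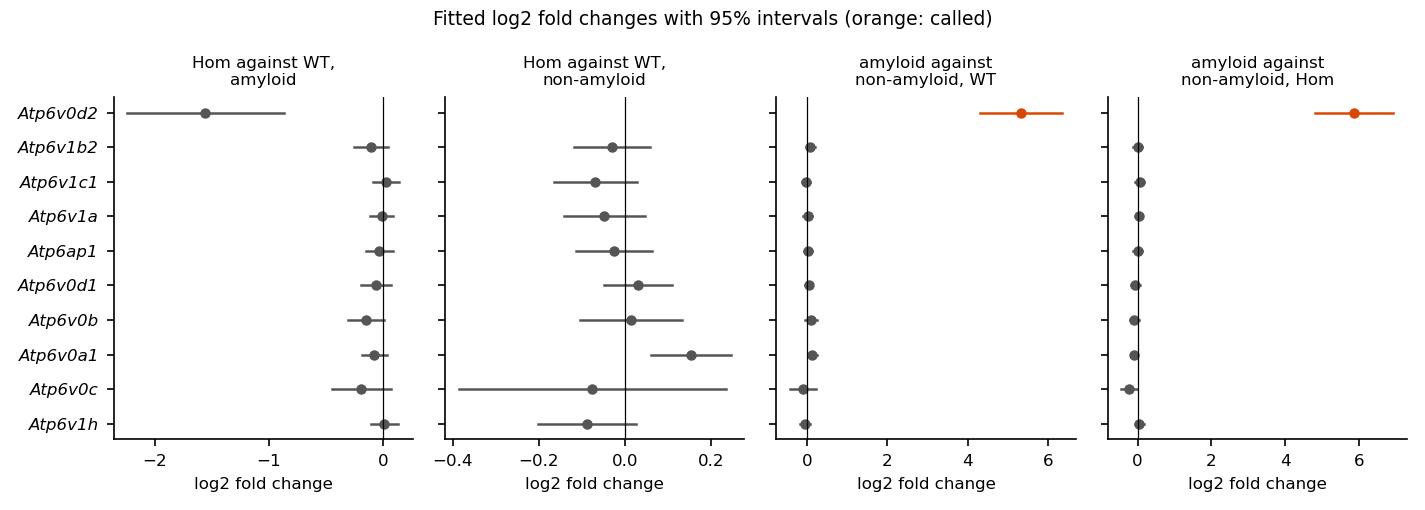
Fitted log2 fold changes of the members (points) with 95% intervals (lines) in the 4 comparisons of genotype or cohort, with called members in orange. The horizontal axes differ in range. Atp6v0d2 is left out of the non-amyloid genotype panel because its levels there rest on 24 counts in WT and 5 in Hom mice. Only Atp6v0d2 departs from 0 by more than 0.25, at -1.56 between genotypes with amyloid (adjusted p = 0.0554) and at 5.33 and 5.86 between cohorts.

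From mouse to mouse some of the broadly used subunits varied together and others in opposite directions. Of the 36 pairs of these 9 members 11 were negatively correlated, with a median of 0.32 (0.22 without replicate 19). After the group means were taken out of the log2 CPM values, the 6 pairs of the V1 subunits Atp6v1a, Atp6v1b2, Atp6v1c1 and Atp6v1h had correlations of 0.52 to 0.89 over the 40 libraries, the highest being Atp6v1c1 with Atp6v1h. The V0 ring subunits Atp6v0b and Atp6v0c went together at 0.73. Atp6v0c was negatively correlated with 5 of the other 8, down to -0.78 with Atp6v1h. Without replicate 19 these extremes were 0.89 and -0.78, whereas Atp6v0d1 with Atp6ap1 fell from 0.70 to 0.48. These correlations are descriptions over 40 libraries that share depth, scaling and RNA handling, and their source was not tested. Over the same libraries the neuronal marker sum correlated with the 9 members at between -0.68 and 0.76, with a median of 0.47, and the astrocyte marker sum at between -0.54 and 0.70, with a median of 0.49.

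**Figure D4:**
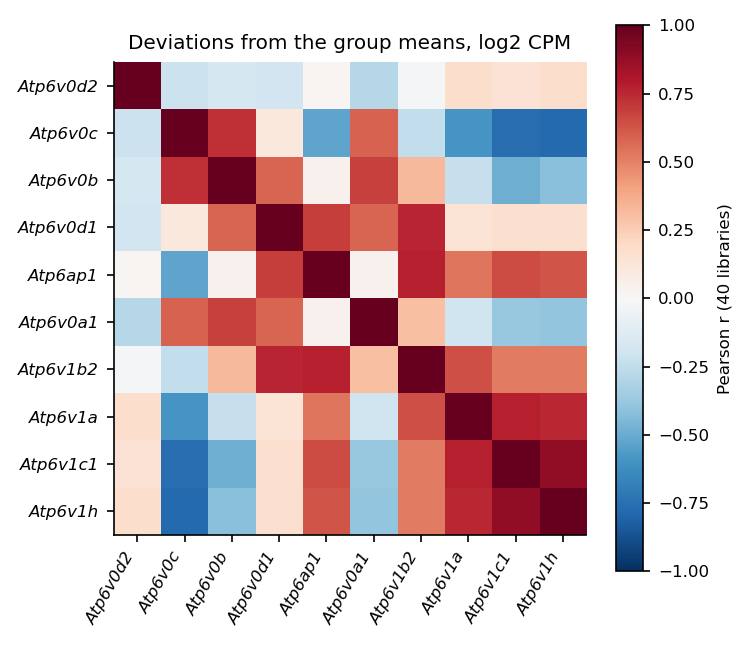
Pearson correlations (colour scale from -1 to 1) between the 10 members over 40 libraries, computed on log2 CPM after subtracting each group's mean. The V1 subunits form a red block of 0.52 to 0.89, Atp6v0c and Atp6v0b pair at 0.73 and run against Atp6v1c1 and Atp6v1h, and the Atp6v0d2 row is pale.

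Atp6v0d2 is a myeloid gene, so its values were set beside those of the microglial markers. The summed level of the 14 microglial markers was 496 ± 53 CPM in non-amyloid WT, 490 ± 25 CPM in non-amyloid Hom, 1393 ± 370 CPM in amyloid WT and 910 ± 188 CPM in amyloid Hom mice (SD, n = 10 each). Ranges were 419 to 583, 464 to 546, 883 to 2047 and 669 to 1213 CPM. Of the 14 markers, 14 rose between cohorts in WT mice and 13 in Hom mice (6.21% and 4.58% of all genes did), with median log2 fold changes of 1.37 and 0.86. Between amyloid Hom and WT mice all 14 were negative with a median of -0.58, and none passed (0.0753% of all genes did). Of the 14, 13 had an unadjusted p below 0.05 by edgeR, against 9.67% of all genes. The 12 markers of plaque-associated microglia summed to 1980 ± 613 CPM in amyloid WT and 1168 ± 267 CPM in amyloid Hom mice. No defining marker of either list was at 0. The markers of border macrophages (Mrc1, Cd163, Lyve1 and Pf4) stayed at 10.5 to 11.9 CPM in the group means. In any of these comparisons 0 of 4 passed, near the share of all genes, which was at most 7.31%. 

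Within the amyloid groups, the deviation of Atp6v0d2 from its group mean correlated with that of the microglial marker sum at 0.80 over 20 libraries (0.82 in the 10 WT and 0.77 in the 10 Hom libraries). For the plaque-associated list it was 0.82, for oligodendrocyte markers 0.57, for astrocyte markers 0.57, for endothelial markers -0.48 and for neuronal markers 0.03. In the 10 WT libraries alone it was 0.75 for astrocyte and 0.68 for oligodendrocyte markers. For choroid plexus markers it was 0.09 over the 20 libraries, 0.63 in the 10 WT and -0.50 in the 10 Hom libraries. The 9 broadly used subunits correlated with the microglial sum at between -0.05 and 0.15 over 40 libraries. With the microglial sum in place of Atp6v0d1, a reference added after the values had been seen, the log2 ratio of amyloid Hom to amyloid WT mice differed by -0.86, and that of the amyloid to the non-amyloid cohort by 4.14 in WT and 4.61 in Hom mice. The part of microglial number or state in the Atp6v0d2 values was not tested.

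**Figure D5:**
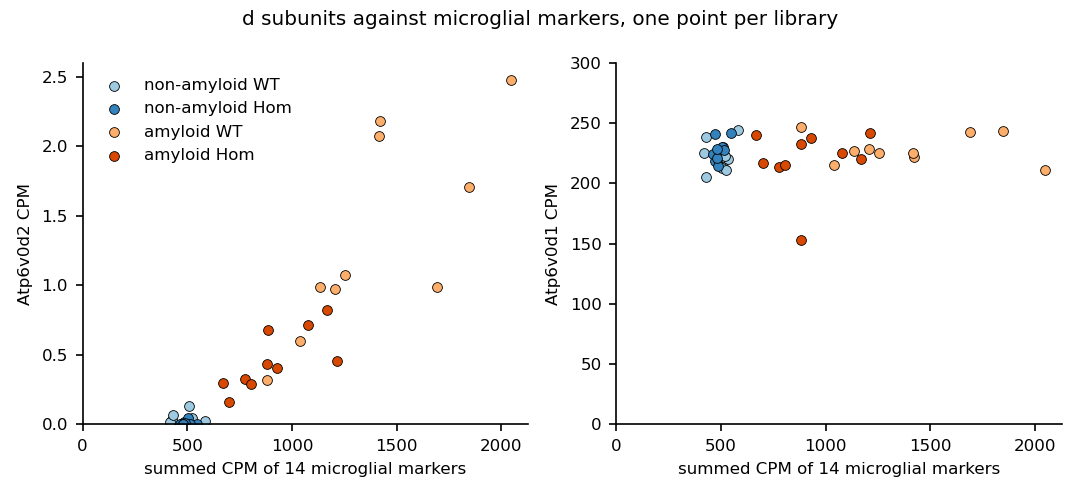
CPM of Atp6v0d2 (left) and Atp6v0d1 (right) against the summed CPM of 14 microglial markers, with 1 point per library coloured by group and linear axes from 0. Atp6v0d2 climbs with the marker sum through the amyloid libraries (correlation of the deviations from group means 0.80 over 20 libraries) and is near 0 at sums below about 583 CPM, whereas Atp6v0d1 is level.

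The genes whose pattern was most like that of Atp6v0d2, among 15198 with a mean of at least 1 CPM, were Cd84 (Pearson r = 0.97 of log2 CPM over 40 libraries), Lyz2 (0.96), Fam46c (0.96), Mpeg1 (0.96) and Ptprc (0.96). This measure includes the step between cohorts, with 10 of 20 non-amyloid libraries at 0 counts of Atp6v0d2. A gene that rises strongly between cohorts can thus score high by it. Lyz2 encodes lysozyme, Mpeg1 the macrophage perforin-2 and Ptprc the leukocyte antigen CD45. By deviations from the 4 group means the nearest included Cd84 (0.67), Cybb (0.65), Gm8995 (0.65) and Gusb (0.63). Cybb encodes a membrane subunit of the phagocyte NADPH oxidase and Gusb a lysosomal hydrolase. Cd84 rose from 3.39 ± 0.77 CPM in non-amyloid WT to 19.6 ± 6.0 CPM in amyloid WT mice and stood at 11.3 ± 4.2 CPM in amyloid Hom mice (SD, n = 10 each). None of the broadly used subunits was among these genes.

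Of the 16 other V-ATPase genes, 13 had enough counts, and 1 rose between cohorts in WT mice, a share near the 6.21% of all genes. That was Tcirg1, which encodes the a3 subunit of osteoclast and macrophage pumps, from 8.17 ± 1.53 CPM in non-amyloid WT to 13.5 ± 3.8 CPM in amyloid WT mice (SD, n = 10 each; log2 fold change 0.73 ± 0.14, SE, adjusted p = 0.0014 by edgeR). In Hom mice it went from 7.83 ± 0.87 to 9.76 ± 1.57 CPM (0.30 ± 0.10, adjusted p = 0.0556), and between the amyloid genotypes its log2 fold change was -0.47 ± 0.14 (adjusted p = 0.145). At the other end of this list was the C subunit form Atp6v1c2 at -0.33 ± 0.16 in WT mice, which did not pass. No gene of the list passed between genotypes (0.0753% of all genes did with and 0.0329% without amyloid). The median log2 fold change of the 13 was 0.01 between cohorts in WT mice and -0.02 in Hom mice.

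Of the 9 assembly and regulation factors with enough counts, which include the V0 assembly factor Vma21 and the Dmxl1, Dmxl2 and Wdr7 genes of the complex that joins V1 to V0, 0 passed in any comparison of genotype or cohort (edgeR). Of all genes, 7.31% and 5.83% passed between cohorts in WT and Hom mice. Between genotypes 0.0753% passed with and 0.0329% without amyloid, so 0 of 9 is near these shares. Between cohorts in WT mice their log2 fold changes ran from -0.12 (Dmxl1) to 0.04 (Wdr7). Of 11 lysosomal ion channels and exchangers, 1 rose between cohorts in WT mice (6.21% of all genes did), the two-pore cation channel gene Tpcn2, from 2.58 ± 0.36 to 3.84 ± 0.57 CPM (log2 fold change 0.58 ± 0.10, SE, adjusted p = 2.7e-04). In Hom mice Tpcn2 was at 2.61 ± 0.42 and 2.86 ± 0.45 CPM, and its log2 fold change between the amyloid genotypes was -0.43 ± 0.11 (adjusted p = 0.0798). The lowest of that list between cohorts in WT mice was the chloride exchanger gene Clcn5 at -0.17 ± 0.08. The MiT/TFE transcription factors that drive lysosomal genes did not pass in any comparison, 0 of 3, where at most 7.31% of all genes did. Between cohorts in WT mice Tfeb was the highest at 0.18 ± 0.18 and Tfe3 the lowest at 0.10 ± 0.08.

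The osteoclast list holds genes that work beside Atp6v0d2 in bone. Of its 7 tested members 4 rose between cohorts in WT mice and 3 in Hom mice (6.21% and 4.58% of all genes did), with median log2 fold changes of 0.85 and 0.25. Between the amyloid genotypes 1 of the 7 fell (0.0518% of all genes did). Dcstamp, the fusion receptor of osteoclast precursors, went from 0.106 ± 0.048 CPM in non-amyloid WT to 0.749 ± 0.2705 CPM in amyloid WT (log2 fold change 2.82 ± 0.28) and from 0.0840 ± 0.0746 to 0.371 ± 0.168 CPM in Hom mice (2.11 ± 0.46). Its log2 fold change between the amyloid genotypes was -1.01 ± 0.25 (adjusted p = 0.0797). Nfatc1, the osteoclast transcription factor, rose in WT mice by 0.85 ± 0.11 and was at 0.25 ± 0.08 in Hom mice (adjusted p = 0.0525).

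Gpnmb and Spp1 rose in both genotypes. Both are also on the list of plaque-associated microglia, of which 11 of 11 tested genes rose in WT mice (6.21% of all genes did). Gpnmb went from 1.998 ± 0.785 CPM in non-amyloid WT to 21.02 ± 13.3 CPM in amyloid WT mice and reached 6.90 ± 2.06 CPM in amyloid Hom mice. It fell between the amyloid genotypes, with a log2 fold change of -1.61 ± 0.29 (adjusted p = 0.033 by edgeR), and this call was lost in 12 alternatives (limma-voom, the robust dispersion, and leaving out WT replicate 5, 12, 32 or 36 or Hom replicate 10, 25, 30, 33, 39 or 40). Spp1, osteopontin, was at 56.5 ± 36.1 CPM in amyloid WT and 22.6 ± 4.8 CPM in amyloid Hom mice (-1.32 ± 0.26, adjusted p = 0.0525). Ctsk, the collagen-cutting protease of osteoclasts, was the lowest of the list between cohorts in WT mice, at -0.20 ± 0.09. The comparisons within the amyloid cohort and between cohorts share the amyloid WT mice, so these values are set side by side only.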

How the data were processed

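Poly(A) RNA of 40 mouse cortices was sequenced, and the authors deposited 1 merged table of raw gene counts with gene positions and lengths. GEO's processing labels name STAR 2.5.2b, featureCounts 1.5.1 and mm10, while the study's methods describe another aligner and counter release. The strand setting is not given in the sources used here. Counts on the 488 genes opposite a much more abundant gene were 0.0144% to 0.0191% of the total in 39 libraries and 0.616% in replicate 19. Reads of overlapping genes on opposite strands may thus be mixed most of all in replicate 19, and the extent was not tested. Of the 10 members, 8 share no exon bases with another gene, while Gm12841 overlaps Atp6v0b and Rgs20 overlaps Atp6v1h. The study left out 1 amyloid Hom female for its low percentage of gene counts and its result in a strand check. Neither the labels nor the paper name that library. Replicate 19, an amyloid Hom female, had the fewest counts and the highest antisense share of the 40 libraries. All 40 libraries were used here.

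The 21253 genes that reached 10 counts in 4 libraries or more were tested by edgeR 4.0.16 (R 4.3.3; TMM, quasi-likelihood test, Benjamini-Hochberg adjustment). A gene was called at an adjusted p below 0.05 and a log2 fold change beyond 0.25. Genotypes were compared within cohorts, cohorts within genotypes, and sexes within cohorts with genotype as a covariate. SEs are the log2 fold change over the root of F. CPM values use TMM over the 40 libraries. DESeq2 1.42.0 and limma 3.58.1 were alternatives. Ratios were tested with SciPy by 100000 permutations, adjusted over 4 comparisons. The labels do not say more of the mice than cohort, genotype, sex and age, so p-values measure the spread between these mice. Of the fits, only edgeR's comparison of Hom with WT in the amyloid cohort was tested on simulated counts.

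The members and gene lists were chosen with earlier results of these data known. Named beside the 10 members were genes of the related lists called in a genotype or cohort comparison, the highest and lowest of each list between cohorts in WT mice, and the 5 nearest genes by either correlation, of which 1 is not reported here. Not tested were Atp6v1b1, Atp6v1e2, Atp6v1g3, Tldc2, Ocstamp and Tfec, which were under the count filter, Clcn4, whose symbol was not matched, and Clec7a, whose symbol is on more than 1 row.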

Additional observations from a re-analysis of the deposited data

Results flagged for a closer look

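With 44 groups of values examined (10 members and 1 ratio in 4 groups of 10), 5 had a highest or lowest library whose gap to the next exceeded Dixon's 95% critical value for 10 samples; chance marks about 1 in 20 groups. In amyloid Hom mice, replicate 19 was the lowest library for Atp6v0d1 (153 CPM against 214 CPM for the next), Atp6v1b2 (627 against 827 CPM) and Atp6ap1 (311 against 395 CPM). The same library had the fewest counts of all 40 and the share of antisense counts given above; the part of either in these values was not tested. Atp6v1h was highest in amyloid WT replicate 8, at 259 CPM against 231 CPM for the next. Atp6v0d2 was highest in non-amyloid Hom replicate 6 at 0.0403 CPM, which is 3 counts against 1 in the next library.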

How the results depend on the processing

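In the amyloid cohort the number of members called between genotypes went from 0 to 1 (Atp6v0d2) with DESeq2, filterByExpr, sex as a covariate, one fit of all 40 libraries, sex as a covariate without replicate 19 or edgeR's newer quasi-likelihood method (the last added after seeing the data), and ranged from 0 to 1 over the libraries left out: it was 1 without WT replicate 9, 13 or 22 or Hom replicate 34. The cause was not tested. The Hom minus WT difference of the ratio in non-amyloid mice ranged from -1.62 to -1.09 as libraries were left out. In the amyloid cohort it ranged from -1.60 to -1.23 and kept its adjusted p under 0.05. With a pseudocount of 5 the ratio differences between cohorts were 3.68 in WT and 2.90 in Hom mice, since low counts were raised. For the 9 other members, 0 of 1467 values under alternatives were called, and 67 changed sign, none of them larger than 0.0605 in size. Atp6v0d2 was called between cohorts in every alternative run. Dropping the fold change threshold altered no count of members. No paired analysis was possible because the mice are numbered from 1 to 40 and no number is shared between groups. Between the amyloid genotypes, and of 32 alternatives each, Spp1 passed in 12, Nfatc1 in 6, Dcstamp in 4, Tpcn2 in 3 and Tcirg1 in 1, always as lower. Depth limits Atp6v0d2 in non-amyloid mice, where 10 of 20 libraries held 0 counts.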
